A study of Mus musculus with 55 samples.

Results

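Meis1, Meis2 and Meis3 are the 3 mouse genes of the Meis family, taken by their symbols from the deposited tables of mouse small cell lung cancer organoids. They were 3 of 15479 genes in the RNA table of PRMK and PRM tumours and 3 of 51912 in the RNA table of PRMK tumours with a guide against Meis2 (sgMeis2) and with a scrambled guide (sgScramble). Each gene body and 100 kb to each side of it was also read out of 26 peak lists. The series held 55 samples, and it addressed how loss of KMT2C, a histone H3K4 methyltransferase, alters the epigenome and the spread of these tumours. All groups carry guides against Trp53 and Rb1 and a retroviral Myc transgene with luciferase. PRMK peak libraries additionally carry a guide against Kmt2c, as do the sgMeis2 and sgScramble RNA libraries, which bear the Meis2 or scrambled guide on top of it. The PRMK peak libraries of H3K4me2, H3K4me3 and KMT2C also list the Meis2 or the scrambled guide, as given below. Edited lung organoids had been injected into the lung of recipient mice, and cells labelled lung or liver were recovered from those mice. Cells for ATAC were collected after 3 days of culture. The ages of the mice and the number of clones per organoid line were not given in the labels. RNA was measured in 3 libraries per group and each chromatin mark in 2 libraries per group: lung PRMK and lung PRM in all 5 (open chromatin by ATAC, H3K4me1, H3K4me2, H3K4me3 and KMT2C), liver PRM in ATAC, in H3K4me1 and for KMT2C.

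MEIS proteins are homeodomain transcription factors of the TALE class, named for an insertion in a loop of the homeodomain. They bind DNA together with PBX partners and, at many sites, with HOX proteins, and they keep PBX in the nucleus. MEIS1 sustains blood stem cells and is a cofactor of HOXA9 in acute myeloid leukaemia, MEIS2 acts in limb, heart and neural crest development and in neuroblastoma, and MEIS3 is known from hindbrain patterning in Xenopus and zebrafish. H3K4me3 marks active and poised promoters, H3K4me1 marks enhancers and promoter flanks, and KMT2C is one of the enzymes that place H3K4me1.

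The 3 promoters are shown because each lay under an H3K4me3 peak in every lung library, so the letters mark where the widths given later are anchored. Each stretch runs 5′ to 3′ along the gene from 250 bases before to 50 bases after the start site, is taken from RefSeq on GRCm38.p6, and has its CG dinucleotides in capitals. All 3 genes matched an entry, and in each the start site used there lies inside the annotated gene, whose 5′ end is further upstream. The Meis1 promoter is chr11:19018920-19019219 on the minus strand, the Meis2 promoter chr2:116064570-116064869 on the minus strand, and the Meis3 promoter chr7:16175145-16175444 on the plus strand.
Meis1: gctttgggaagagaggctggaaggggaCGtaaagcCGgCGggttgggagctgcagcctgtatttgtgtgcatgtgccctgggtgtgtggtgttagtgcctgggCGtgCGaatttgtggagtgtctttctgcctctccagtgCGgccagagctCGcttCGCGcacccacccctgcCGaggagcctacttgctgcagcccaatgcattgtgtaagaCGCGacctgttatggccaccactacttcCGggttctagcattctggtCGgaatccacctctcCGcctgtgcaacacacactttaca
Meis2: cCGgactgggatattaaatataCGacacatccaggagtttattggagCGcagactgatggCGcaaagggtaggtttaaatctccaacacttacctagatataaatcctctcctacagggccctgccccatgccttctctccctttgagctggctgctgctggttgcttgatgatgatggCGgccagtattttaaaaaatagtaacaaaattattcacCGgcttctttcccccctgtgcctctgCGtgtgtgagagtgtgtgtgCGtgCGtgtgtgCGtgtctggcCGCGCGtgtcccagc
Meis3: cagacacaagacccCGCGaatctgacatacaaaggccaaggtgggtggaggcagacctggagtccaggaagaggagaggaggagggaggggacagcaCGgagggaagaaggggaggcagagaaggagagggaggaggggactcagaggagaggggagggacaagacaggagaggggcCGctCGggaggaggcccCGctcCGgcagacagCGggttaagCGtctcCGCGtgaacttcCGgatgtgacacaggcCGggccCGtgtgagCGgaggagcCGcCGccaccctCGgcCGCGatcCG
The Meis1 promoter held 15 CG dinucleotides, that of Meis2 13 and that of Meis3 21, against a median of 7 over 32851 promoters of the same length. The core MEIS recognition motif TGACAG, searched on both strands, was in none of the 3 windows and in 19.2% of all promoters. The composite PBX and HOX motif TGATTGAT, searched likewise, was in none of them and in 0.746% of all promoters.

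Several libraries stood apart in their values or their labels. Total counts were 12013253 to 24123055 in the PRMK and PRM libraries and 18524493 to 24389041 in the sgMeis2 and sgScramble libraries. The PRMK RNA samples list no Kmt2c guide among their constructs, Kmt2c RNA averaged 91.4 ± 11.5 CPM (the read count scaled to library size by TMM) in PRMK and 122 ± 60.1 CPM in PRM (SD, n = 3 each), and a stranded library kit is named for the PRM RNA samples only, so genotype and library preparation cannot be told apart. KMT2C peaks numbered 187682 and 134561 in the libraries labelled lung PRMK, against 9949 and 16681 in lung PRM. Peak number does not measure the amount of protein, and loss of KMT2C was not tested. In PRMK, replicate 1 of H3K4me2, H3K4me3 and KMT2C lists the Meis2 guide and replicate 2 the scrambled guide. Among ATAC lists, lung PRMK 1 held 593 peaks and the liver lists 345 and 141, against 54201 in lung PRMK 2 and 64596 and 19834 in lung PRM. Summed neuroendocrine markers (7 of 8 in the table, among them Chga, Syp and Insm1) were at 3343 to 5424 CPM in PRMK and at 122, 2976 and 5063 CPM in PRM, with PRM library 6 at the low end. Of the 7, 5 had a log2 fold change above 0 and 2 below, and DESeq2 called 1, as lower, beside 4.86% of all genes called lower. Neurod1, also in this list, was lower in PRMK, at 0.121, 0.731 and 0.990 CPM against 25.5, 104 and 11.6 CPM in PRM. Epithelial markers (4 of 4) summed to 517 to 2860 CPM in PRMK and 48.6 to 2814 CPM in PRM. Fibroblast markers (6 of 6) summed to 63.7 to 280 CPM in PRMK and 2.58 to 333 CPM in PRM. Among immune markers 2 of 4 were in the table and summed to 375 to 558 CPM in PRMK and 3.36 to 439 CPM in PRM, of which Lyz2 averaged 440 ± 89.7 CPM in PRMK and 167 ± 223 CPM in PRM (SD, n = 3 each). Endothelial markers (2 of 4, Pecam1 and Kdr) were low but did not overlap, with 2.66 to 4.04 CPM in PRMK and 0.178 to 1.52 CPM in PRM, and DESeq2 called Kdr (adjusted p 0.0104). With 7, 3 and 1 counts in PRM, Kdr passed the filter on low counts only through PRMK. Alveolar and hepatocyte markers summed to at most 6.88 and 3.94 CPM in PRMK and 5.77 and 3.36 CPM in PRM. The part of these cell types in the Meis values was not tested.

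Meis2 and Meis1 RNA were higher in every PRMK library than in every PRM library, and Meis3 was not. Meis2 (ENSMUSG00000027210) held 139, 215 and 272 CPM in PRMK libraries 1 to 3, against 0.889, 1.46 and 17.3 CPM in PRM libraries 4 to 6. The lowest PRMK library thus stood well above the highest PRM library, number 6, which is also the one with few neuroendocrine transcripts and the most Krt8 RNA. The raw Meis2 counts behind these were 3457, 4116 and 6857 in PRMK and 17, 26 and 194 in PRM, so counting error is small in PRMK and larger in PRM libraries 4 and 5. The mean was 208 ± 66.5 CPM in PRMK and 6.54 ± 9.30 CPM in PRM (SD, n = 3 each), a log2 fold change of 5.02 (SE 1.25). Bulk RNA cannot tell more cells with Meis2 from more Meis2 RNA per cell.

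Meis1 (ENSMUSG00000020160) held 47.3, 32.1 and 39.8 CPM in PRMK libraries 1 to 3 and 5.80, 6.89 and 15.7 CPM in PRM libraries 4 to 6. Here too the groups did not overlap, and PRM library 6 was again the highest of its group. The mean was 39.7 ± 7.59 CPM in PRMK and 9.46 ± 5.41 CPM in PRM (SD, n = 3 each), a log2 fold change of 2.07 (SE 0.46). Meis3 (ENSMUSG00000041420) held 22.2, 19.99 and 14.0 CPM in PRMK libraries 1 to 3 and 25.1, 10.2 and 1.16 CPM in PRM libraries 4 to 6. The Meis3 groups overlapped, with PRM library 4 the highest and PRM library 6 the lowest of all 6, whereas library 6 was the highest PRM library for Meis1 and Meis2. Its mean was 18.7 ± 4.25 CPM in PRMK and 12.2 ± 12.1 CPM in PRM (SD, n = 3 each), a log2 fold change of 0.62 (SE 0.94).

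The edgeR quasi-likelihood test across all 13914 genes called 0 of them at an adjusted p under 0.05 (0.00%). It gave adjusted p-values of 0.195 for Meis2, 0.19 for Meis1 and 0.755 for Meis3, beside 2384 genes with an unadjusted p under 0.05 and a lowest adjusted p of 0.158. DESeq2, the alternative, called Meis2 (adjusted p 0.000215) and Meis1 (0.00219) and not Meis3 (0.741), where it called 3.90% of all genes as higher and 4.86% as lower. The authors' deposited table gave log2 fold changes of 5.04 for Meis2 and 2.12 for Meis1, with adjusted p-values of 0.000446 and 0.00292, and 0.67 with an adjusted p of 0.74 for Meis3. Lack of overlap with PRMK above PRM was seen for 15.1% of all genes tested. Without PRM library 6 the log2 fold change was 7.47 for Meis2, 2.65 for Meis1 and 0.09 for Meis3, and without PRM library 4 that of Meis3 was 1.69 (edgeR adjusted p 0.068, 0.0996, 0.927 and 0.29).

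**Figure D1:**
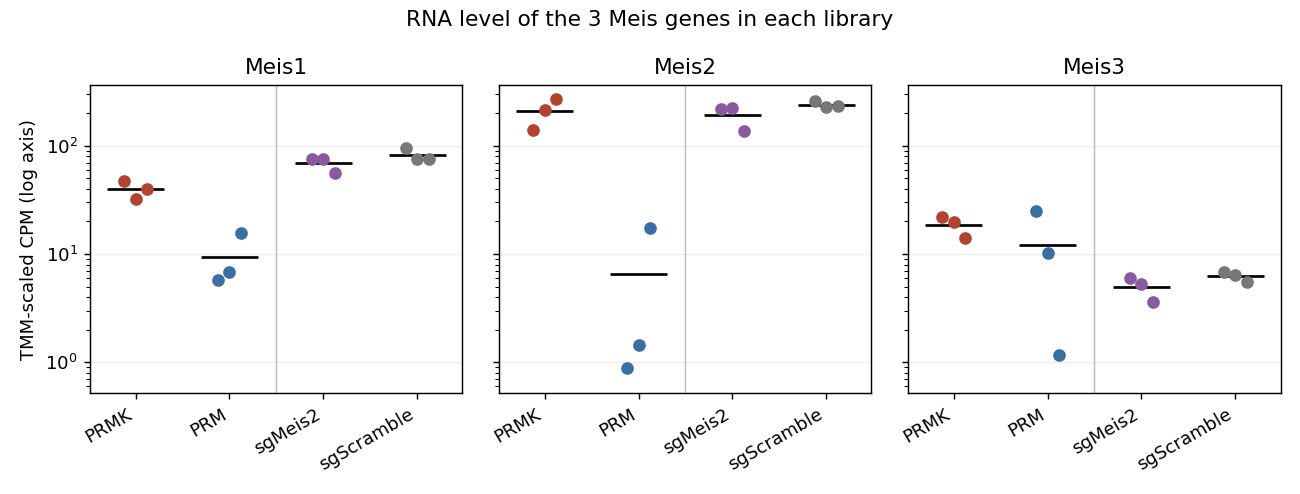
Each point is 1 RNA library (3 per group) and each black bar a group mean, in TMM-scaled CPM on a log axis, for PRMK, PRM, sgMeis2 and sgScramble; the grey line separates the tables, which were normalised separately. Meis2 is at 139 CPM or more in PRMK and at 17.3 CPM or less in PRM, Meis1 is likewise separated, and Meis3 spans 1.16 to 25.1 CPM in PRM.

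A long non-coding RNA gene that overlaps the Meis2 5′ end was, like Meis2, higher in every PRMK library than in every PRM library. G630016G05Rik lies at chr2:116067225-116085911 and overlaps the annotated Meis2 gene by 313 bases. It held 39, 62 and 114 counts in PRMK libraries 1 to 3 and 0, 0 and 2 counts in PRM libraries 4 to 6, with no overlap (adjusted p 0.192 by edgeR, 0.00118 by DESeq2). It passed the filter on low counts only through PRMK, where it is high, and 15.1% of all genes tested were separated in this direction. Reads in the shared bases could belong to either gene, since no strand is stated for the PRMK counts. The protein-coding gene BC052040, whose end lies in the same window on the far side, was at 20.8 ± 3.42 CPM in PRMK and 12.7 ± 5.80 CPM in PRM and overlapped between groups. Of the 5 other genes in the Meis1 window none was in this table. Of the 10 in the Meis3 window 6 were tested, and neither tool called any.

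Most of the other TALE genes had a log2 fold change above 0 in PRMK against PRM, 6 of the 7 tested, with 1 below. Among the other TALE genes (the PBX partner genes, the PREP genes Pknox1 and Pknox2, and the repressors Tgif1 and Tgif2) 7 of 8 were tested, and edgeR called 0 in either direction. DESeq2 called 0 higher and 1 lower, beside 3.90% of all genes called higher and 4.86% called lower. The median log2 fold change of the 7 TALE genes was 0.48, beside -0.02 over all genes tested. The one called by DESeq2 was Tgif2, a repressor that binds a motif like that of MEIS, at 1.25, 1.57 and 0.911 CPM in PRMK libraries and 4.08, 13.5 and 9.79 CPM in PRM libraries. Every PRMK library was below every PRM library (log2 fold change -2.87, SE 0.61; adjusted p 0.19 by edgeR, 0.000254 by DESeq2). The share of all genes separated in this direction was not counted, and in the opposite direction it was 15.1%. Pbx2 and Pknox1 lay above PRM in every PRMK library without passing either test, at log2 fold changes of 0.66 (SE 0.26) and 0.66 (SE 0.29).

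Of the 39 Hox genes, which encode the other DNA-binding partners, 9 were in the PRMK and PRM table and only Hoxb4 passed the filter on low counts. It held 6.55, 0.835 and 47.6 CPM in PRMK libraries 1 to 3 and 0.261, 0.056 and 0.445 CPM in PRM libraries 4 to 6. The groups did not overlap, but PRMK library 3 carried most of the signal (log2 fold change 6.20, SE 1.70; adjusted p 0.208 by edgeR, 0.000433 by DESeq2). With 5, 1 and 5 counts in PRM, Hoxb4 passed the filter only through PRMK, where it is high. Lack of overlap in this direction was seen for 15.1% of all genes tested. Meis2 was likewise highest and Meis1 second highest in PRMK library 3, while PRMK library 2, at 0.835 CPM of Hoxb4, had the second highest Meis2. Hoxb5 and Hoxb6, left untested by that filter, held 0.261 to 103 CPM and 0.313 to 51.8 CPM in PRMK and no count in any PRM library.

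Of 10 genes linked to MEIS activity in other tissues (Pax6, Epha8, Dcx, Hif1a, Cdkn1a, Cdkn2a, Cdkn2b, Flt3, Trib2 and Ccnd3), 8 were in the table and 7 tested. 1 lay above 0 and 6 below, with a median log2 fold change of -1.02 beside -0.02 over all genes. edgeR called none of the 7. Where DESeq2 called 4.86% of all genes as lower, it called 1 of the 7, as lower. That gene was Trib2, a pseudokinase gene reported as a MEIS1 target in leukaemia, at 28.9, 54.1 and 34.1 CPM in PRMK and 75.8, 101 and 85.5 CPM in PRM (log2 fold change -1.16, SE 0.30; adjusted p 0.201 by edgeR, 0.0169 by DESeq2). Myc, whose counts may come from the transgene or the gene itself, was at 263 ± 54.0 CPM in PRMK and 1835 ± 614 CPM in PRM (SD, n = 3 each), or -2.80 on the log2 scale (SE 0.36). The adjusted p for Myc was 0.158 in edgeR and 1.57e-10 in DESeq2, and its part in the Meis values was not tested.

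Across the 6 PRMK and PRM libraries the log2(CPM + 1) values of Meis1 and Meis2 had a Pearson r of 0.98, and those of Meis3 an r of 0.14 with each of the other two. Among 11259 genes with a mean of at least 5 CPM, those most like Meis1 included Crabp1 (0.994) and Pygo2 (0.988), and those most like Meis2 were Copz1 (0.994), Taf6 (0.994) and Zcchc3 (0.993). With the group means taken off, the most alike were Glod4, Rnaseh1 and Fbxw9 for Meis1 and Gusb, Ubap1 and Col18a1 for Meis2, at r from 0.991 to 0.998. No gene was in both lists of either member, and with 6 libraries in 2 groups that differ in Meis1 and Meis2 these values describe the libraries only.

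A guide against Meis2 in PRMK tumours left the level of Meis2 RNA close to that of the scrambled guide in 2 of 3 libraries. Meis2 held 219, 224 and 136 CPM in sgMeis2 libraries 1 to 3 and 259, 227 and 233 CPM in sgScramble libraries 1 to 3. All sgMeis2 values were below all sgScramble values, but libraries 1 and 2 only narrowly, while library 3 stood apart. The mean was 193 ± 49.2 CPM in sgMeis2 and 240 ± 16.8 CPM in sgScramble (SD, n = 3 each), a log2 fold change of -0.31 (SE 0.19; edgeR adjusted p 0.754), and -0.12 without sgMeis2 library 3. Counts over the whole transcript do not show whether the guide disrupted the protein, and no guide sequence was used here. Lack of overlap with sgMeis2 below sgScramble was seen for 7.92% of the 16260 genes tested.

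Meis1 held 74.9, 75.9 and 55.6 CPM in sgMeis2 libraries 1 to 3 and 95.8, 75.3 and 76.2 CPM in sgScramble libraries 1 to 3. Meis3 held 6.06, 5.30 and 3.59 CPM in sgMeis2 and 6.76, 6.40 and 5.53 CPM in sgScramble. Both pairs of groups overlapped, and for both genes sgMeis2 library 3 was the lowest of all 6. The log2 fold change was -0.26 (SE 0.15) for Meis1 and -0.32 (SE 0.21) for Meis3, each with an edgeR adjusted p of 0.754, and without sgMeis2 library 3 they were -0.13 and -0.14. edgeR called 0 of 16260 genes (0.00%), with 760 at an unadjusted p under 0.05, and DESeq2 called 22, none of them a Meis gene. The 3 Meis genes followed each other across these 6 libraries (Pearson r 0.94 for Meis1 with Meis2, 0.91 for Meis1 with Meis3 and 0.94 for Meis2 with Meis3). The genes most like Meis1 in this table were Med26, Tox4 and Gm14270, and those most like Meis2 were Pnpla8, Gm6206 and Zfp39, at r from 0.996 to 0.999 among 11540 genes. With the group means taken off they included Ctcf and Med26 for Meis1 and AW554918, Phc1 and Slfn9 for Meis2, at r of 0.998 or more.

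None of the listed partner or downstream genes passed either test in sgMeis2 against sgScramble. Of 8 TALE genes 7 lay below 0, with a median log2 fold change of -0.15 beside 0.00 over all genes. Pknox1 was at 61.6 ± 7.65 CPM in sgMeis2 and 72.8 ± 2.21 CPM in sgScramble (SD, n = 3 each), without overlap. Of 8 Hox genes tested, all in the Hoxb cluster from Hoxb2 to Hoxb9, 4 lay above and 4 below 0. Of 8 downstream genes tested 6 lay above and 2 below 0, from -0.31 (SE 0.20) for Dcx to 0.31 (SE 0.22) for Cdkn2a. The non-coding neighbour G630016G05Rik was at 3.803 ± 0.775 CPM in sgMeis2 and 5.13 ± 0.313 CPM in sgScramble, without overlap (log2 fold change -0.43, SE 0.18; edgeR adjusted p 0.754). Neuroendocrine markers summed to 2690 to 2983 CPM in sgMeis2 and 2822 to 2895 CPM in sgScramble. The 4 epithelial markers summed to 141 to 163 CPM in sgMeis2 and 187 to 202 CPM in sgScramble, without overlap, and their part in these values was not tested. Lack of overlap in this direction, as for Pknox1 and G630016G05Rik, was seen for 7.92% of all genes tested.

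Levels can be set against each other between genes only per length, which the authors' deposited TPM of the sgMeis2 table give, although their columns sum to between 144671 and 173014 and the length used is not stated. On that scale Meis2 was at 4.80, 4.89 and 3.02 TPM in sgMeis2 libraries 1 to 3 and 5.74, 4.95 and 5.09 TPM in sgScramble libraries 1 to 3. Meis1 was at 1.38, 1.39 and 1.03 TPM in sgMeis2 and 1.78, 1.38 and 1.39 TPM in sgScramble. Meis3 was at 0.437, 0.381 and 0.262 TPM in sgMeis2 and 0.494, 0.46 and 0.397 TPM in sgScramble. The order Meis2, Meis1, Meis3 held in all 6 libraries, and no 2 neighbours in it overlapped. Between groups, in CPM and across tables scaled separately, Meis2 was lowest in PRM, and the PRMK range held or overlapped those of both guide groups. Meis1 was lowest in PRM, next in PRMK, and higher in sgMeis2 and sgScramble, whose ranges overlapped. Meis3 was lower in every sgMeis2 and sgScramble library than in every PRMK library, and the PRM range spanned all of them.

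More of the Meis1 locus lay under H3K4 methylation peaks in PRMK than in PRM. The gene lies at chr11:18880428-19019651 (GRCm38, minus strand, 139.2 kb), and its window spans 339.2 kb. H3K4me1 peaks covered 124 and 89.2 kb of that window in lung PRMK libraries 1 and 2, against 22.3 and 21.1 kb in lung PRM libraries 1 and 2. H3K4me2 covered 89.8 and 81.0 kb in lung PRMK and 32.4 and 33.7 kb in lung PRM. H3K4me3 covered 51.1 and 40.3 kb in lung PRMK and 27.4 and 24.1 kb in lung PRM. In each of these marks both PRMK libraries were above both PRM libraries, which held for 22.0% of 21887 windows of protein-coding genes in H3K4me1, 42.3% in H3K4me2 and 19.6% in H3K4me3. As a share of the window, the H3K4me1 difference of 25.0 percentage points was exceeded by 35 of those windows, the H3K4me2 difference of 15.4 points by 27 and the H3K4me3 difference of 5.90 points by 233.

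The regions that were peaks in both PRMK libraries and in neither PRM library, called gained here, show where those peaks lay. Of 14 H3K4me1 regions in the Meis1 window 7 were gained, 1 was lost (the opposite pattern) and 3 were kept in all 4 libraries, where 15.6% of H3K4me1 regions genome-wide were gained, 14.1% lost and 24.7% kept. A pair of gained regions flanked the promoter on both sides, 1 from -8.93 to -1.48 kb and 1 from 4.88 to 18.9 kb relative to the start site (chr11:19020446-19027900 and chr11:19000058-19014086). The other 5 were at 43.4 to 149 kb, 3 of them over or beyond the 3′ end of the gene. Of 13 H3K4me2 regions 5 were gained, 0 lost and 5 kept (8.07% gained, 1.36% lost and 42.0% kept genome-wide). All 5 gained ones carried H3K4me1 in both PRMK libraries, beside 54.3% of all 2912 gained H3K4me2 regions, not matched for width. Of the 5, 2 also carried H3K4me1 in a PRM library, beside 41.8% of all. Of 8 H3K4me3 regions 1 was gained, 0 lost and 4 kept (1.26% gained, 3.20% lost and 55.3% kept genome-wide). The H3K4me3 peak over the promoter was 16.6 and 16.7 kb wide in PRMK and 10.4 and 14.9 kb wide in PRM.

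**Figure D2:**
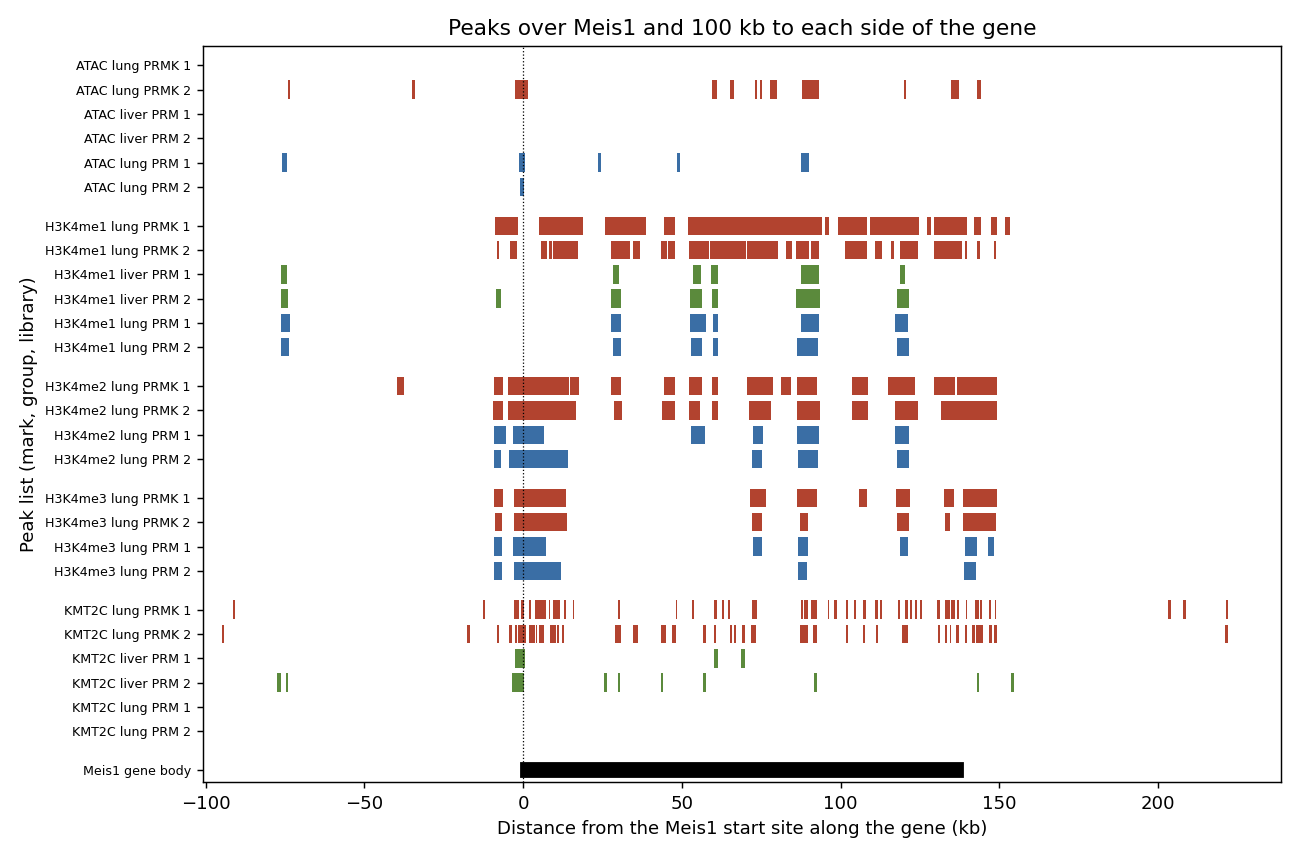
Peaks (boxes) of each list over Meis1 and 100 kb to each side, by distance from the start site along the gene in kb; rows are libraries, lung PRMK red, liver PRM green and lung PRM blue, and the black bar is the gene body. H3K4me1 boxes cover 124 and 89.2 kb in lung PRMK and 22.3 and 21.1 kb in lung PRM, while lung PRM has no KMT2C box.

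Meis2 showed the same order in H3K4me1, while its promoter-proximal H3K4me2 and H3K4me3 turned on 1 PRM library. The gene lies at chr2:115861264-116067537 (minus strand, 206.3 kb), and its window spans 406.3 kb. H3K4me1 covered 105 and 52.7 kb in lung PRMK libraries 1 and 2, against 21.3 and 17.4 kb in lung PRM libraries 1 and 2. Both PRMK libraries were above both PRM libraries, as in 22.0% of the 21887 windows. The difference, 14.6% of the window, was exceeded in 285 of them. Of 24 H3K4me1 regions 9 were gained, 0 lost and 5 kept (15.6% gained, 14.1% lost and 24.7% kept genome-wide). As at Meis1, a pair of gained regions lay on either side of the promoter, from -11.5 to -5.20 kb and from 3.29 to 25.6 kb (chr2:116069818-116076082 and chr2:116039053-116061326).

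H3K4me3 over the Meis2 promoter formed 1 broad peak of 37.8 and 38.5 kb in lung PRMK libraries 1 and 2 and of 38.3 kb in lung PRM library 1, against 7.62 kb in lung PRM library 2. In the first 3 of these lists it ran from about -13 kb (-12.3, -13.0 and -12.8 kb) to 25.5, 25.4 and 25.5 kb, so the broad form was present in a PRM library too. H3K4me2 showed the same division, with a promoter peak of 40.3 and 40.7 kb in PRMK, against 42.9 kb in PRM library 1 and 6.72 kb in PRM library 2. Over the whole window H3K4me2 covered 100.3 and 94.0 kb in PRMK and 76.4 and 15.96 kb in PRM, and H3K4me3 covered 61.5 and 51.6 kb in PRMK and 47.5 and 13.7 kb in PRM. Both PRMK libraries were above both PRM libraries, as in 42.3% of coding windows for H3K4me2 and 19.6% for H3K4me3. PRM library 1 on its own was far closer to the PRMK libraries than PRM library 2 was. As a share of the length each list covered, H3K4me2 overlapped between groups. It was at 0.826 and 0.923 per mille in PRMK and 0.884 and 0.165 per mille in PRM, while H3K4me3 stayed apart on that scale. Of 16 H3K4me2 regions 4 were gained, 0 lost and 3 kept (8.07% gained, 1.36% lost and 42.0% kept genome-wide). Of 6 H3K4me3 regions 0 were gained, 0 lost and 2 kept (1.26% gained, 3.20% lost and 55.3% kept genome-wide). Among the 4 gained H3K4me2 regions, 2 carried H3K4me1 in both PRMK libraries, near the share of 54.3% among all gained H3K4me2 regions. Replicate 1 of PRMK in both marks lists the Meis2 guide, and its promoter peaks differed from those of replicate 2 by less than 1 kb in width.

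**Figure D3:**
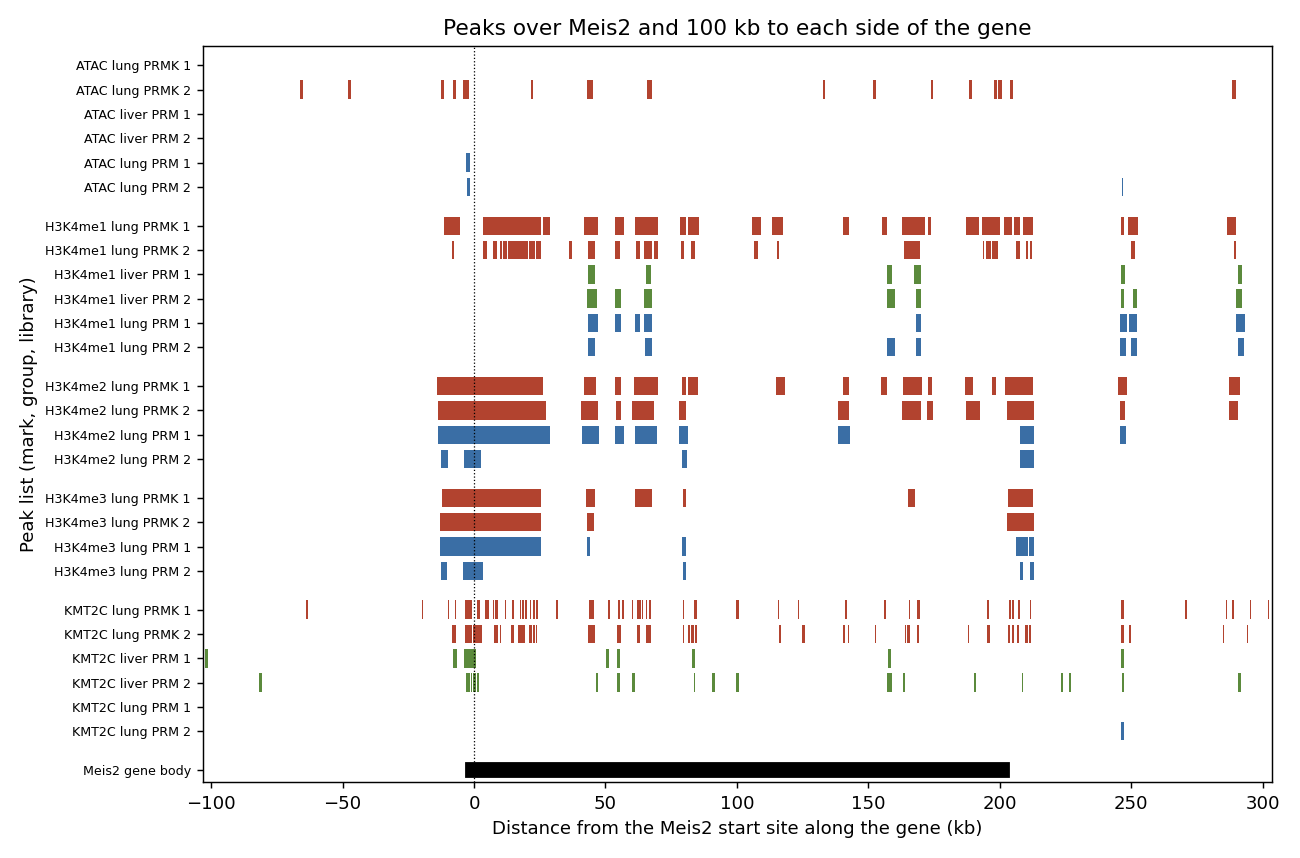
Peaks (boxes) of each list over Meis2 and 100 kb to each side, by distance from the start site along the gene in kb, laid out by library with lung PRMK red, liver PRM green and lung PRM blue. The broad H3K4me2 and H3K4me3 boxes over the start site, 37.8 to 42.9 kb wide, are in lung PRMK 1 and 2 and lung PRM 1, and in lung PRM 2 they are 6.72 and 7.62 kb wide.

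The Meis3 window had the same set of promoter-mark regions in both groups. The gene lies at chr7:16174012-16186510 (plus strand, 12.5 kb), and its window spans 212.5 kb with 10 other genes. Each lung library had 7 H3K4me3 peaks in it, covering 28.0 and 26.3 kb in PRMK and 25.3 and 26.8 kb in PRM, and all 7 regions were kept, beside 55.3% of H3K4me3 regions genome-wide. The promoter peak was 3.30 and 3.66 kb wide in PRMK and 2.86 and 3.28 kb wide in PRM. H3K4me2 covered 31.6 and 32.5 kb in PRMK and 24.4 and 29.9 kb in PRM, with 6 of 8 regions kept, beside 42.0% genome-wide, and none gained or lost. H3K4me1 covered 25.6 and 13.2 kb in PRMK and 11.7 and 13.7 kb in PRM, which overlapped, and none of it lay in the gene body in any list. Of 6 H3K4me1 regions 2 were gained, at -67.3 to -63.8 kb and 31.5 to 36.7 kb from the start site, where 15.6% were gained genome-wide.

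**Figure D4:**
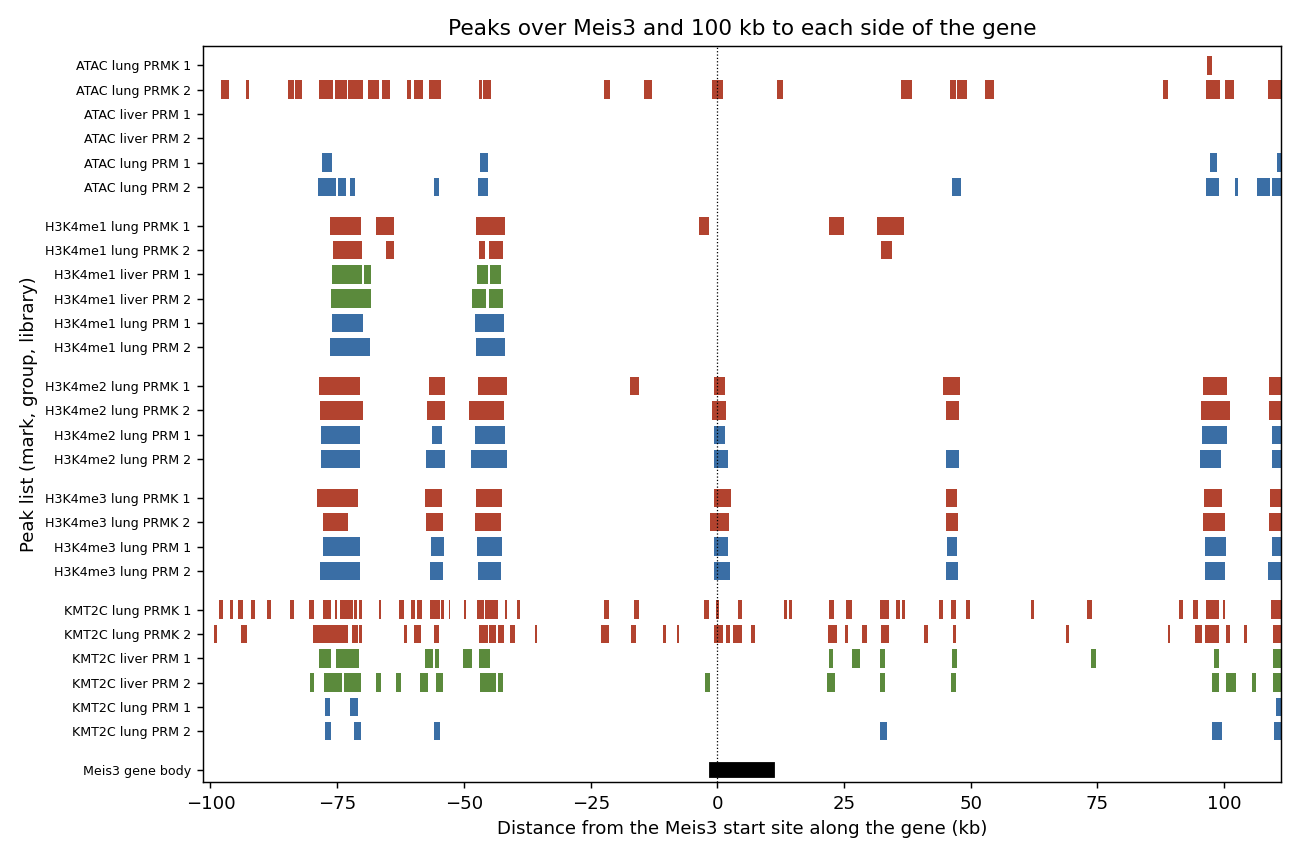
Peaks (boxes) of each list over Meis3 and 100 kb to each side, by distance from the start site along the gene in kb, with lung PRMK red, liver PRM green and lung PRM blue. The 7 H3K4me3 boxes recur in every lung list, and no H3K4me1 box lies over the gene body.

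Peak lists of one mark differed in length, so the same windows were read after all 4 lists were shortened to the same number of peaks, a setting chosen after the data were seen. H3K4me1 then covered 118 and 86.9 kb of the Meis1 window in lung PRMK and 22.3 and 21.1 kb in lung PRM, and 97.6 and 47.0 kb of the Meis2 window in lung PRMK and 21.3 and 17.4 kb in lung PRM. H3K4me2 over Meis1 was at 79.0 and 81.0 kb in PRMK and 32.4 and 30.5 kb in PRM, and H3K4me3 at 48.7 and 40.3 kb in PRMK and 24.8 and 24.1 kb in PRM. These groups stayed apart.

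**Figure D5:**
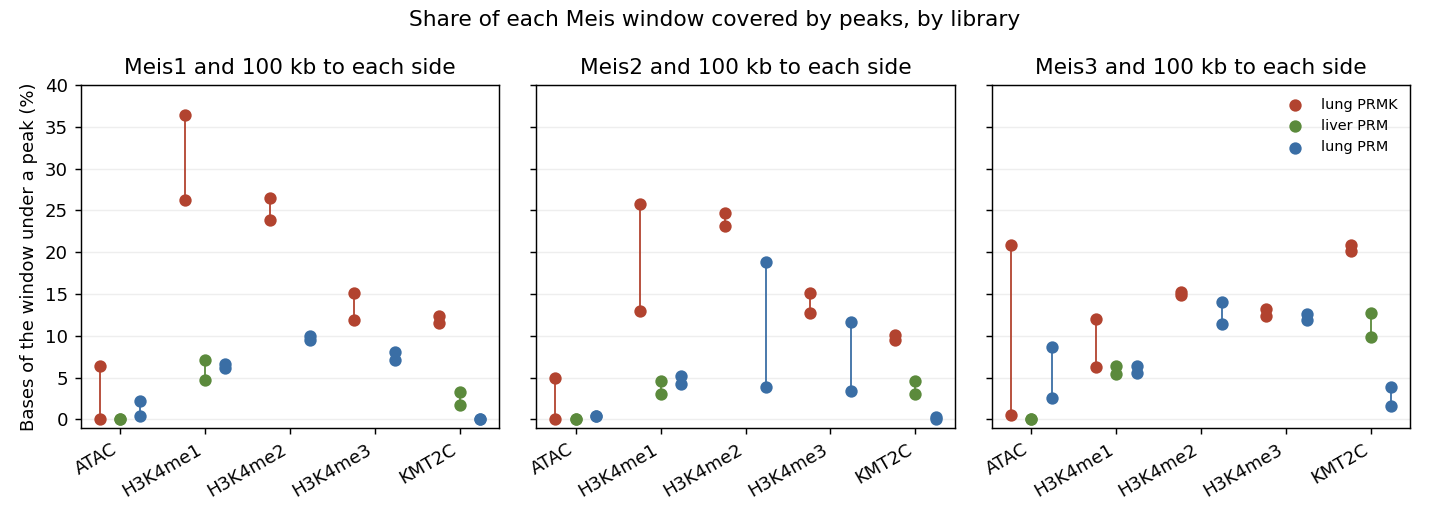
Each point is the share of a gene's window under peaks in 1 library, in percent, with a line joining the 2 libraries of a group; groups stand in the order lung PRMK, liver PRM, lung PRM within each mark. H3K4me1 and H3K4me2 over Meis1 separate lung PRMK from lung PRM, the PRM libraries lie far apart for Meis2 in H3K4me2 and H3K4me3, and H3K4me3 over Meis3 is at 13.2% and 12.4% in lung PRMK and 11.9% and 12.6% in lung PRM.

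The gained H3K4me1 regions of Meis1 and Meis2 also carried other marks. All 7 of Meis1 and 5 of 9 of Meis2 overlapped H3K4me2 peaks of both PRMK libraries, beside 23.8% of all 8075 gained H3K4me1 regions. H3K4me3 peaks of both PRMK libraries lay over 5 of 7 and 4 of 9, beside 11.5% of all. An H3K4me2 peak of a PRM library lay over 2 of 7 and 5 of 9, beside 22.0%. Of the 2 gained regions of Meis3, 0 overlapped H3K4me2. The regions of one gene share a locus, so these shares are a description of few places. An overlap of 1 bp counted, which favours wide regions, and gained ones reached 14.0 kb at Meis1 and 22.3 kb at Meis2. The shares over all gained regions were not matched for width.

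KMT2C peaks over the windows were more numerous in lung PRMK than in lung PRM, as they were in the whole lists. Meis1 had 46 and 40 KMT2C peaks in the libraries labelled lung PRMK and 0 and 0 in lung PRM. Meis2 had 48 and 41 in lung PRMK and 0 and 1 in lung PRM, and Meis3 had 48 and 34 in lung PRMK and 3 and 6 in lung PRM. Regions gained numbered 23 of 53 at Meis1, 23 of 61 at Meis2 and 12 of 55 at Meis3, with 0 lost, where 20.8% were gained and 0.258% lost genome-wide. With all 4 lists shortened to the same number of peaks, the regions gained over the 3 windows numbered 10 in place of 58. KMT2C covered 39.3 and 42.1 kb of the Meis1 window, 38.5 and 40.9 kb of the Meis2 window and 44.3 and 42.8 kb of the Meis3 window in lung PRMK, against at most 8.15 kb in any of them in lung PRM, and 92.1% of coding windows were likewise higher in both PRMK libraries. In those lists of 9949 peaks KMT2C covered 9.38 and 9.73 kb at Meis1, 8.92 and 14.6 kb at Meis2 and 13.7 and 16.5 kb at Meis3 in lung PRMK, against 0 and 0, 0 and 0, and 3.41 and 4.29 kb in lung PRM. KMT2C peaks of both PRMK libraries lay over 6 of 7 gained H3K4me1 regions at Meis1 and 8 of 9 at Meis2, beside 46.4% of all gained ones, again not matched for width.

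Open chromatin at the Meis loci could be read in 3 of the 4 lung lists only, since lung PRMK 1 had 593 peaks in all. Meis1 had 0 and 14 ATAC peaks in lung PRMK libraries 1 and 2, against 6 and 1 in lung PRM libraries 1 and 2. Meis2 had 0 and 17 in lung PRMK, against 1 and 2 in lung PRM, and Meis3 had 1 and 31 in lung PRMK, against 5 and 11 in lung PRM. No region was gained or lost in any of the 3 windows (0.0111% gained and 3.62% lost genome-wide). The Meis1 promoter lay under an ATAC peak in lung PRMK 2 and in both PRM libraries, the 300 bases of the Meis2 promoter in none of the 4, with peaks between -4.11 and -1.47 kb from its start site in lung PRMK 2 and both PRM libraries, and the Meis3 promoter in lung PRMK 2 alone. The annotated Meis2 gene reaches upstream of the start site used, to position 116067537, and that 5′ end lay under the ATAC peaks of lung PRMK 2 and lung PRM 1 and beside that of lung PRM 2.

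Liver PRM cells were compared with lung PRM cells, which carry the same constructs. Of the H3K4me1 regions 6 of 7 were kept at Meis1, 5 of 9 at Meis2 and 2 of 2 at Meis3, and 0 were gained or lost (4.11% gained, 1.02% lost and 53.3% kept genome-wide), so the share kept at Meis2 was near the background. It covered 16.04 and 24.1 kb at Meis1 in liver PRM and 22.3 and 21.1 kb in lung PRM, 12.1 and 18.9 kb at Meis2 in liver PRM and 21.3 and 17.4 kb in lung PRM, and 11.6 and 13.5 kb at Meis3 in liver PRM and 11.7 and 13.7 kb in lung PRM. Of the gained H3K4me1 regions of lung PRMK, a liver PRM peak lay over 1 of 7 at Meis1, 0 of 9 at Meis2 and 0 of 2 at Meis3, beside 17.3% of all gained regions.

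KMT2C in liver PRM lay over the Meis1 and Meis2 promoters in both libraries and over neither promoter in lung PRM. Over all 32851 promoters a KMT2C peak lay on 34.4% and 40.9% in liver PRM libraries 1 and 2 and on 15.8% and 21.7% in lung PRM libraries 1 and 2. The promoter peak was 3.17 and 3.76 kb wide at Meis1 and 4.59 and 1.27 kb wide at Meis2. Meis1 had 3 and 10 KMT2C peaks in liver PRM and 0 and 0 in lung PRM, Meis2 8 and 19 in liver PRM and 0 and 1 in lung PRM, and Meis3 13 and 17 in liver PRM and 3 and 6 in lung PRM. Regions gained were 1 of 12, 4 of 20 and 4 of 19, with 0 lost, where 21.5% were gained and 0.127% lost genome-wide and the liver lists held 65201 and 113129 peaks. Covered length was higher in both liver libraries in 82.2% of coding windows, as it was for all 3 genes. The liver ATAC lists held no peak in any Meis window, so regions lost there (1 of 5, 1 of 2 and 4 of 10; 0.00% gained and 18.2% lost genome-wide) come with lists of 345 and 141 peaks.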

How the data were processed

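The RNA values analysed were raw counts per gene, deposited by the authors, who aligned reads with STAR 2.6.0a to GRCm38 per the submitters' processing notes. The deposited tables also hold the authors' log2 fold changes, their p-values with adjusted p-values and, in the sgMeis2 table, TPM. CUT&Tag reads were aligned with Bowtie2 to mm10 and peaks called with SEACR, per the submitters' processing notes. Each deposited SEACR peak carries its total and highest signal, and each deposited ATAC peak a score (reads aligned with Bowtie2 2.2.1; which caller was used is not given here). The depth of the peak libraries is unknown. Whole-genome bisulfite, single-cell and S-adenosylmethionine data were not analysed here.

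Counts were tested in R 4.3.3 with the edgeR 4.0.16 quasi-likelihood test (TMM, filterByExpr, Benjamini-Hochberg over all genes, adjusted p under 0.05), with DESeq2 1.42.0, the edgeR likelihood ratio test, RLE factors, no filter, each library left out and, for the guides, a replicate block as alternatives. CPM are scaled by TMM. Nothing says that libraries came from separate animals, so p-values measure only the spread between these samples. PRM libraries are numbered 4 to 6 as in the table's columns, and the titles number them 3 to 5.

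Windows were each RefSeq gene (GRCm38.p6, the build of the files) and 100 kb to each side. The 4 lists of a comparison were merged into union regions, with an overlap of 1 bp counting as a peak, in Python 3.11.15 with numpy 2.4.6 and pandas 2.3.3; figures used matplotlib 3.10.9. With 2 libraries against 2 no test was made. Alternatives were 50% of the region covered, narrower windows, the upper 50% of each list and each library left out. The count tests were tested on simulated data. Members and gene lists were chosen with earlier results of these data known. Genes named are the members, their window neighbours, members of the lists past either test, and the 3 genes most alike, of which some are not reported here.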

Additional observations from a re-analysis of the deposited data

How the results depend on the processing

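The log2 fold changes of the 3 Meis genes kept their sign in all 30 alternative fits for PRMK against PRM and all 33 for sgMeis2 against sgScramble. DESeq2 and the edgeR likelihood ratio test called Meis1 (2.06 and 2.08) and Meis2 (4.97 and 5.00), which the main test did not. Leaving out 1 library gave 1.76 to 2.65 for Meis1, 4.42 to 7.47 for Meis2 and 0.09 to 1.69 for Meis3, and no edgeR call of any of them. Genes called were 0 in the main test for PRMK against PRM, 1218 by DESeq2, 454 by the likelihood ratio test and 0 to 796 with 1 library left out (796 without PRM library 4). For sgMeis2 against sgScramble they were 0, 22 by DESeq2, 31 by the likelihood ratio test and 0 to 46 (46 without sgMeis2 library 3). The cause of these differences was not tested.

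With a replicate block the log2 fold changes for sgMeis2 against sgScramble were -0.27 for Meis1, -0.34 for Meis2 and -0.34 for Meis3, and 0 genes were called. Same-numbered libraries did not deviate together (correlations 0.008, -0.013 and 0.028). The labels do not say that a shared number marks a shared animal or batch, and with 3 libraries per group these correlations cannot decide it. Of all 6 guide libraries, not every one correlated best with its own number. No paired analysis was possible for PRMK against PRM because the titles share fewer than 2 replicate numbers.

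For regions over the 3 windows together, PRMK against PRM, H3K4me1 gained were 18, 10 in gene bodies alone, and 18 to 40 with 1 library left out. H3K4me1 lost were 1, 0 with the 10 kb flank, in gene bodies and in the upper 50% of the lists, 2 with lists of equal length, and 1 to 3 with a library left out. H3K4me2 gained were 9, 3 in the upper 50%, 5 with equal lists and 9 to 18 with a library left out. H3K4me3 gained were 1, 2 in the upper 50%, 3 with equal lists and 1 to 4, and lost 0 and 0 to 1. KMT2C gained were 58, 10 with equal lists and 58 to 133. ATAC gained were 0, with 0 to 41 (41 without lung PRMK 1), and lost 0, with 0 to 5. For liver PRM against lung PRM, ATAC lost were 6, 2 with the 10 kb flank, 2 in gene bodies, 0 with equal lists and 6 to 13. H3K4me1 gained were 0, 1 in the upper 50% and 0 to 1, and lost 0, 1 with equal lists and 0 to 1. KMT2C gained were 9, 5 with the 10 kb flank, 5 in gene bodies, 4 in the upper 50%, 3 with equal lists and 9 to 39. A group of 1 library passes more regions by construction. Equal lists were chosen after the data were seen. For single windows 351 of 432 alternative counts stayed within 1.5 times the main count. That number includes counts of 0 that stayed 0, so it does not show how stable the counts above 0 were. The libraries are few, peak depth is unknown, and SEACR lists of unlike length bound every count of regions.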
